A study of Mus musculus with 2 samples.

Results

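Ribosomal protein genes encode the proteins that, with ribosomal RNA, build the small and large subunits of the cytosolic ribosome. They are short, active in nearly every cell, and many carry small nucleolar RNAs (snoRNAs, guides for chemical marks on RNA) in their introns. CTCF, which reads a long DNA motif through its zinc fingers, is often found near promoters and at borders of chromatin domains. The members were the protein-coding genes of GENCODE M21 on chromosomes 1 to 19 of mouse assembly mm10 whose symbol starts with Rpl or Rps and a digit, with Rpsa, Rplp0, Rplp1 and Rplp2. Rps6k kinases and symbols marked as pseudogenes were left out. This gave 82 genes of 20807 protein-coding genes on these chromosomes. By symbol, 40 encode large subunit proteins, 30 small subunit proteins and 3 the stalk (Rplp0, Rplp1, Rplp2), and 8 are paralogues or retrogenes. Rps19bp1, which encodes a binding partner of the small subunit protein Rps19, meets the rule by its name and is no ribosomal protein.

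CTCF was mapped by chromatin immunoprecipitation and sequencing in whole intestine of newborn B6NCrl mice (postnatal day 0, sex not recorded). There was 1 group of 2 replicates, numbered as biological replicates in the labels. Both carry the same biosample and donor entry, a powder of intestines pooled from several dissections, so the spread between them may be technical. No other condition and no control track was used here, so no difference between conditions was tested. The optimal list, kept after scoring how well the ranks of peaks repeat (irreproducible discovery rate, IDR), held 73465 peaks, and each replicate's own list held 300000. Peak signal is the authors' enrichment value, without a stated unit, and read depth is unknown from these lists. A gene was called bound when the summit of an optimal peak lay within 10 kb of any of its transcription start sites (TSSs). Whole tissue was used, so signal from different cell types cannot be told apart.

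Nearly all ribosomal protein genes lay close to a CTCF summit. Of the 82 members, 79 were bound, or 96.3% (95% exact binomial interval 89.7 to 99.2), against 74.4% of all protein-coding genes of chromosomes 1 to 19. All 40 large subunit genes, 29 of 30 small subunit genes, all 3 stalk genes and 6 of 8 paralogues were bound. Intervals cover counting error only, since the lists give no read counts. The share of mitochondrial ribosomal protein genes, which serve the separate ribosome of mitochondria, was 69 of 78 (88.5%), and that of proteasome genes 42 of 49 (85.7%). For genes of ribosome assembly and RNA polymerase I it was 42 of 44 (95.5%). The interval of each of these lists overlaps that of the ribosomal protein genes, and the differences were not tested.

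**Figure D1:**
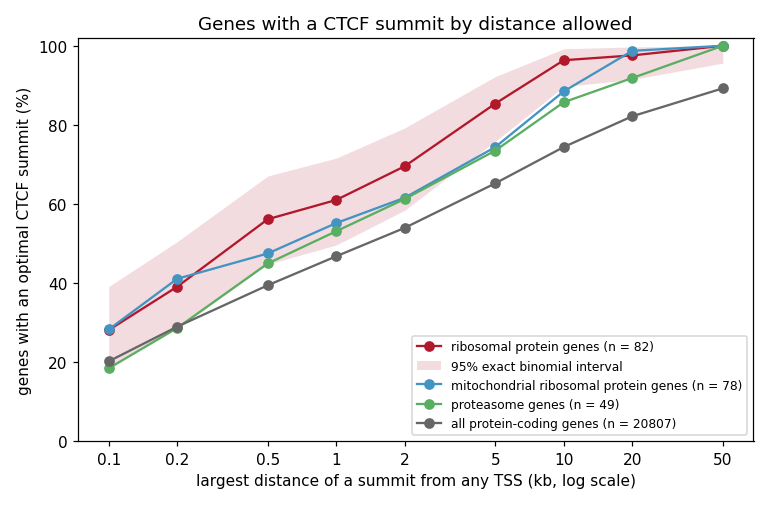
Share of genes with an optimal CTCF summit (y axis, percent) within a given distance of any TSS (x axis, kb, log scale) for ribosomal protein genes, mitochondrial ribosomal protein genes, proteasome genes and all protein-coding genes; the band is the 95% exact binomial interval of the ribosomal protein genes. The ribosomal protein genes reach 61% at 1 kb and 96.3% at 10 kb, and all protein-coding genes 46.7% and 74.4%.

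Ribosomal protein genes differ from the average gene in several traits, and whether these bear on this share was not tested. Members had a median of 6 annotated TSSs and all protein-coding genes 3, while their median length was 3.40 kb against 17.6 kb. A median of 1 other protein-coding gene had a TSS within 10 kb of a member's, against 0 for all genes. Among genes with no such neighbour, 19 of 22 members (86.4%) and 68.3% of all protein-coding genes were bound. With exactly 1 neighbour the counts were 39 of 39 members and 80.9% of all genes, and with 2 neighbours 13 of 13 members and 86.2%. With 3 or more neighbours they were 8 of 8 members and 92.8%. Among genes with 5 or more TSSs, 51 of 51 members were bound, against 92.2% of all such genes. With 2 to 4 TSSs it was 24 of 26 members against 68.7%, and with a single annotated TSS 4 of 5 against 54.9%. With 1 TSS per gene, the 5' end of the gene record, 79 members were again bound, against 68.7% of all protein-coding genes.

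CpG-rich promoters, common among the members, were near a summit in most genes of either set. In the 300-base window from 250 bases before the gene's 5' end, the median ratio of observed to expected CpG was 0.81 in members, against 0.54 in all protein-coding genes. Of the 65 members with a ratio of at least 0.6, 62 (95.4%) were bound, against 90.5% of all such genes. Below 0.6 all 17 members were bound, against 60.9% of all such genes.

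A summit within 1 kb of a TSS was found for 50 of 82 members (61%, interval 49.6 to 71.6), against 46.7% of all protein-coding genes. Translation factor genes, taken by Eif and Eef symbols (70.8%), and genes of ribosome assembly and RNA polymerase I (70.5%) had higher shares than the members at this distance. Set beside all protein-coding genes, the order depended on promoter type. Among genes with CpG ratios of at least 0.6, 39 of 65 members (60%) had such a summit, below the 66% of all protein-coding genes in that class. Under 0.6 it was 11 of 17 members (64.7%) against 30.6%. Among genes with 5 or more TSSs the shares were 60.8% of 51 members and 67.6% of all such genes. At the gene's own 5' end alone, 46 members had a summit within 1 kb, against 38.4% of all protein-coding genes.

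Summits within 1 kb sat mostly upstream of the nearest TSS. Counted per gene and summit, 49 lay in the kb before that TSS and 20 in the kb from it onward. Thus 71.0% were upstream of it, against 55.4% for all protein-coding genes. Where that TSS was an inner one, the upstream side could lie inside the gene, as at Rps2, Rps9 and Rps25. A second rise lay 3 to 4 kb downstream, with 0.244 summits per member, against 0.087 per gene over all protein-coding genes. That distance is near the members' median length.

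**Figure D2:**
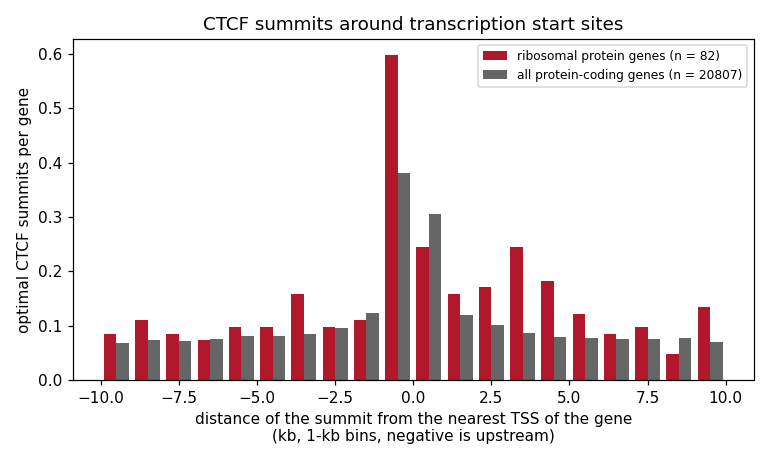
Optimal CTCF summits per gene (y axis) by distance from the nearest TSS of the gene (x axis, kb in bins of 1 kb, negative is upstream), for the 82 ribosomal protein genes and all 20807 protein-coding genes. The bin just upstream of the TSS holds 0.598 summits per ribosomal protein gene and 0.380 per protein-coding gene, and the bin 3 to 4 kb downstream 0.244 and 0.087.

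The genes were often flanked on both sides. A summit lay within 10 kb upstream of the gene in 64 members (78.0%, against 48.7% of all protein-coding genes) and within 10 kb downstream of its 3' end in 64 (78.0%, against 44%). Both sides had one in 51 members, or 62.2% (interval 50.8 to 72.7), against 26.4% of all protein-coding genes, and the count was 34 of 78 (43.6%) for mitochondrial ribosomal protein genes. Inside the gene itself, summits were seen in 32 members (39.0%), below the 60.8% of all protein-coding genes, whose bodies are longer. Among genes with no coding neighbour within 10 kb, 11 of 22 members (50%) were flanked on both sides, against 19.7% of all such genes. With 2 or more neighbours it was 13 of 21 members (61.9%) against 44.8%. Neither side had a summit at 5 members. These were Rps27a, which encodes a ribosomal protein fused to ubiquitin, and Rps9, each with 1 summit inside the gene, and the unbound Rps6, Rpl10l and Rpl39l.

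**Figure D3:**
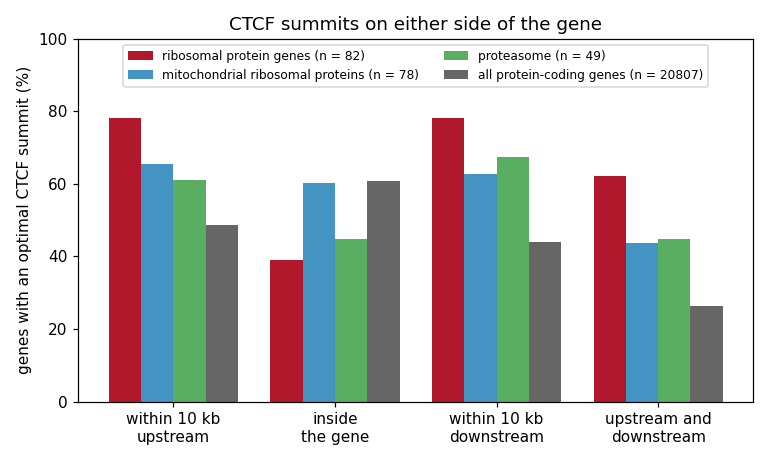
Share of genes (y axis, percent) with an optimal CTCF summit within 10 kb upstream, inside the gene, within 10 kb downstream, and on both outer sides, for ribosomal protein genes, mitochondrial ribosomal protein genes, proteasome genes and all protein-coding genes. Both outer sides are occupied at 62.2% of ribosomal protein genes and 26.4% of all protein-coding genes, while the inside of the gene is occupied at 39.0% and 60.8%.

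Where the nearest motif-bearing summit could be read on both sides, in 34 members, the motifs pointed away from each other in 12, towards each other in 5 and the same way in 17. In all protein-coding genes with such a pair, 26.6% were divergent, 25% convergent and 48.4% tandem.

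The strongest summit within 10 kb of a ribosomal protein gene tended to have a high signal. Over the 79 bound members the strongest summit had a median signal of 358 (quartiles 178 and 478, 95% interval of the median 311 to 396), against 239.8 (85.4 and 395) over all bound protein-coding genes. The median was 303 (interval 174 to 369) for mitochondrial ribosomal protein genes and 297 (203 to 362) for proteasome genes, and both intervals overlap that of the members. Its median rank was percentile 88.2 of the optimal list, against 76.8 for all bound protein-coding genes. In 36 of the 79 members (45.6%) the strongest peak belonged to the top 10% of the optimal list, against 27.8% of bound protein-coding genes. The median was 364 for large subunit genes (95% interval 301 to 459), 348 for small subunit genes (131 to 452) and 266 for the 6 bound paralogues (78.4 to 596), and the intervals overlap. Bound members had 1 to 8 summits within 10 kb, and 17 had a single summit. Their median was 3 summits, against 2 for all bound protein-coding genes. With more summits the strongest is taken from a larger number, and the part of this in the signal was not tested.

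In the replicates, every one of the 78 distinct strongest peaks overlapped a peak of each list. The signal was 7.64 at the lowest, 177 at the median and 302 at the highest in replicate 1, and 7.74, 184 and 301 in replicate 2. The ratio of replicate 1 to replicate 2 had a median of 0.974 and ranged from 0.652 to 2.03, and it was past 1.5-fold in either direction at 3 peaks, those of Rps25, Rps15a and Rpl15. The order was close to the same in both replicates, with a Spearman rho of 0.987 over the 78 peaks. The replicates share the pooled tissue and the peak caller. The optimal list keeps peaks whose ranks repeat between these replicates, so the overlaps and the close order were partly set by that choice. Of these peaks, 75 ranked among the strongest 73465 of both lists.

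**Figure D4:**
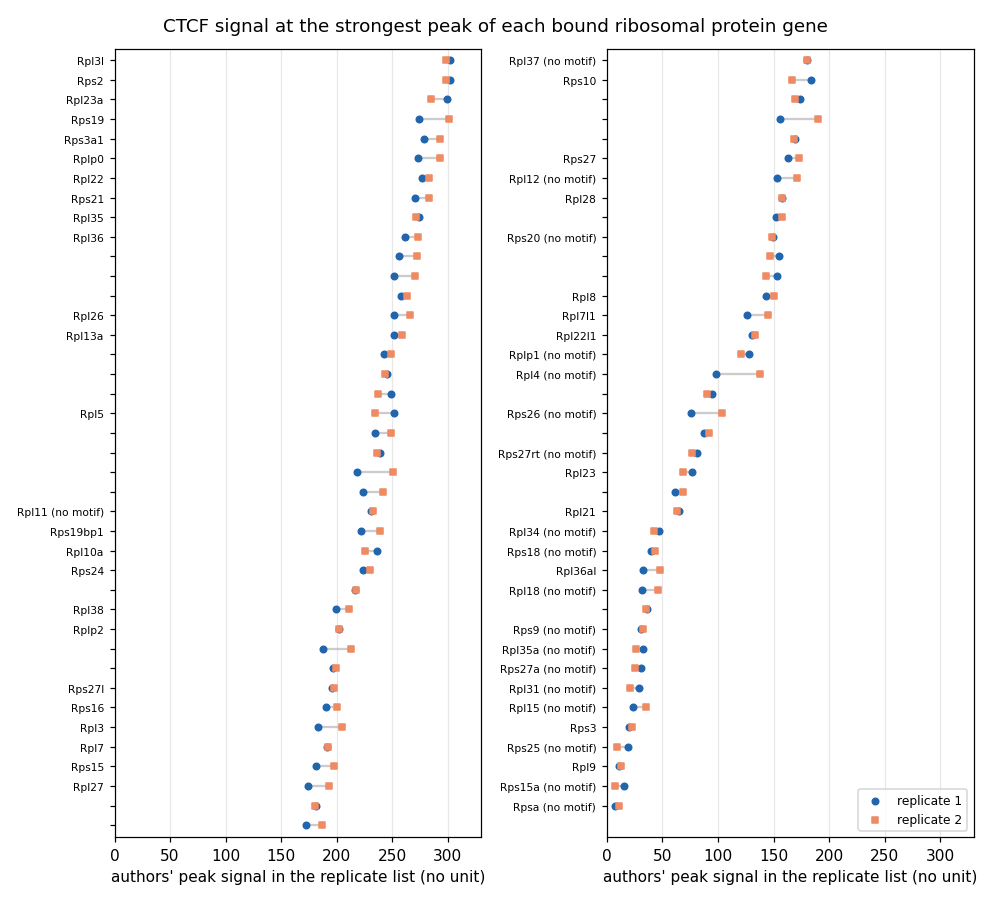
Authors' peak signal in replicate 1 (circles) and replicate 2 (squares) on the x axis for the strongest CTCF peak of each of the 79 bound ribosomal protein genes, ordered by signal in the optimal list; the genes named in the text are labelled, with a note where no CTCF motif was called at that peak. Ratios of the replicates run from 0.652 to 2.03, with Rps25, Rps15a and Rpl15 at the weak end past 1.5-fold, and the signal runs from 7.64 to 302 in replicate 1 and from 7.74 to 301 in replicate 2.

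The top of the order held genes of both subunits. Rps2, a small subunit protein, and the neighbouring Rpl3l, a paralogue of Rpl3 known from striated muscle, shared the strongest peak (signal 596, rank 222 of the optimal list). It had 302 in replicate 1 and 298 in replicate 2. The summit lay 3.045 kb downstream of the Rps2 TSS and 3.326 kb upstream of that of Rpl3l, but only 16 bases from a TSS of Ndufb10, a respiratory chain gene. These 2 members shared 4 summits in all.

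Rpl23a, a large subunit protein beside the exit tunnel, followed with a signal of 582, which was 299.7 in replicate 1 and 285 in replicate 2. Rps19, a small subunit protein whose human counterpart is mutated in Diamond-Blackfan anaemia, reached 573, with 274 in replicate 1 and 301 in replicate 2. In both the strongest summit was downstream of the TSS, at 3.652 kb and 1.901 kb. Rps3a1 reached 567 (279 in replicate 1, 293 in replicate 2) and the stalk scaffold Rplp0 564 (273 and 293 in the same order). Their summits were 0.03 and 0.145 kb upstream of a TSS. Rpl22 (557), Rps21 (551), Rpl35 (542) and Rpl36 (534) completed the 10 strongest, and of these only Rpl36 had its summit at a TSS, 0.066 kb upstream. All 10 held a CTCF motif at that summit.

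Strong peaks with a motif lay directly at the TSS of several members. The 10 sites below, on mm10, are motifs of members with a strongest summit within 0.2 kb of a TSS, a signal over the median of members and a called motif; they show that the sequence under these promoter peaks differs from gene to gene. Capitals mark the 19 bases scored as the motif, read along the motif's strand, with 5 bases of flank on each side.
Rps3a1 (chr3:86142730-86142748, minus strand): acctcCCGACACACGAGGGCGCTGtcgca
Rplp0 (chr5:115559287-115559305, plus strand): gctccGACCCAGCAGAGGGCAGCAggtct
Rpl36 (chr17:56613325-56613343, plus strand): acctcCGGCCACCAGAGGTCGCCCgcagc
Rpl26 (chr11:68901462-68901480, plus strand): cctccGAGCCGCTAGATGTCGCTAaactc
Rpl5 (chr5:107900462-107900480, plus strand): tcctcCTACCGGCAGGGGGCGATAgcccg
Rpl10a (chr17:28328446-28328464, plus strand): cggtgCAGCCGCGTGGTGGCGCCCcccca
Rps24 (chr14:24487124-24487142, minus strand): tgaagGAGCCGCTAGATGGCGATCtagaa
Rpl38 (chr11:114668455-114668473, plus strand): aatctGAACCAGAAGAGGGCAGGGctgct
Rps15 (chr10:80292350-80292368, plus strand): gcctcCGGACAGCGGGGGGCAATGgcgag
Rpl27 (chr11:101442124-101442142, minus strand): ctactCTGCCACTAGGAGGAGGACagagt

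Rps24 and Rpl10a had the nearest of these summits, each 0.003 kb from a TSS. Rps24, a small subunit protein, had a signal of 452, with 223 in replicate 1 and 230.3 in replicate 2. Its motif centre lay 8 bases into the transcript, in the noncoding part of an exon, whereas at Rpl10a (signal 458) it lay 16 bases upstream. Rpl5, which escorts ribosomal RNA of the large subunit, had a signal of 483 (252 in replicate 1 and 235 in replicate 2) and a summit 0.009 kb upstream of a TSS. Rpl38, which in mice is needed for the translation of Hox messenger RNAs, had 409.7 with a summit 0.044 kb upstream. Rpl26 (516), whose human counterpart is also mutated in Diamond-Blackfan anaemia, had its summit 0.11 kb upstream. Rps15 (375) and Rpl27 (367) were the weakest of these 10, at 0.092 and 0.158 kb upstream.

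Other TSS peaks had no called motif. The strongest summit lay within 1 kb of a TSS in 29 members, with a motif in 15 and without one in 14. Signals of the 15 ran from 183 to 567 with a median of 458, and those of the 14 from 19.1 to 459 with a median of 79.9. Beyond 1 kb the motif was called in 43 of 50 members (86%). This split of strongest summits at 1 kb has no share over all protein-coding genes beside it. Over all 79 bound members the share was 58 (73.4%, interval 62.3 to 82.7), against 76.9% of all bound protein-coding genes. The motif was called in 6.51% of 476 windows 1 kb away from the members' summits.

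**Figure D5:**
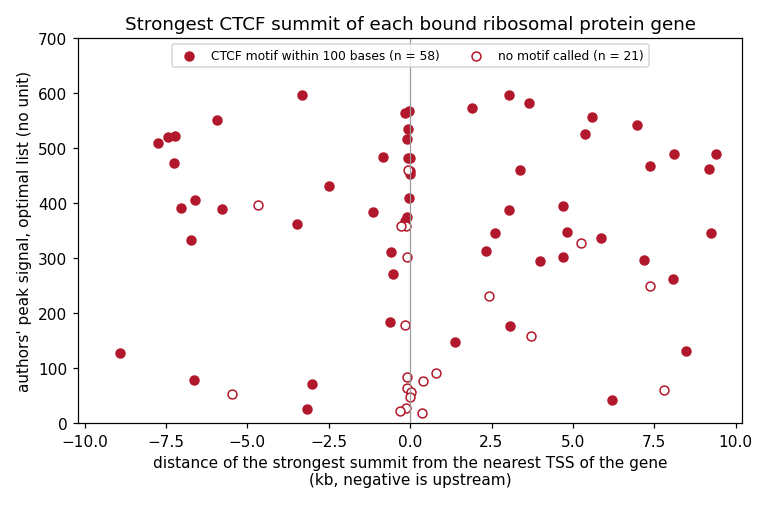
Authors' peak signal in the optimal list (y axis) against the distance of the strongest CTCF summit from the nearest TSS (x axis, kb, negative is upstream) for the 79 bound ribosomal protein genes; filled points have a called CTCF motif and open points have none. Within 1 kb of a TSS, filled points run from 183 to 567 and open points from 19.1 to 459, while beyond 1 kb 43 of 50 points are filled.

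The 14 TSS peaks without a motif covered a wide range. Rpl11, which with Rpl5 restrains the p53 inhibitor Mdm2, had a signal of 459 (231 in replicate 1 and 233 in replicate 2) with its summit 0.051 kb upstream; the best motif score there was 8.2 and the threshold 9.32. Rpl37 (358), Rps20 (302) and Rps26 (178) were also at or above 178. Their best scores were 6.26, 3.97 and 6.75. Weaker ones were Rpl34 (91.0), Rps18 (83.9), Rpl18 (75.9), Rps9 (63.9), Rps27a (57.3), Rpl15 (47.5), Rps25 (27.7), Rps15a (22.2) and Rpsa (19.1). Beyond 1 kb, peaks without a called motif included those of Rpl12 (327), the stalk gene Rplp1 (249), Rpl4 (232), Rps27rt (157), Rpl35a (60.3) and Rpl31 (51.9). Of the 21 members without one, 4 scored within 1 of the threshold.

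Each member's strongest summit within 1 kb of a TSS was also taken. In 29 members this was the peak already described above, so the contrast below is in large part the same one. In the 50 members with a promoter summit the motif was called in 25 (50%, interval 35.5 to 64.5), against 49.4% of all protein-coding genes with one. The median signal was 333 at the 25 with a motif and 57.3 at the 25 without. Over all protein-coding genes these medians were 198 and 50.9. Of the 25 without a motif 17 had the fixed peak width of 310 bases, and of the 25 with one 4 did; the part of peak width in this was not tested. Where a motif was called its centre lay upstream of the nearest TSS in 23 of 25 members. At Rpl23a, Rpl24, Rpl3 and Rps2 that TSS was an inner one, and the motif lay in an intron of the gene. Over the 25 the centre was a median of 228 bases away, and the motif pointed along the gene in 16 and against it in 9. No shares over all protein-coding genes are given for these counts.

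The weakest end of the order was also where the replicates and the lists parted. Rpsa, a small subunit protein also called the laminin receptor, had 7.64 in replicate 1 and 10.6 in replicate 2. Rps15a had 15 in replicate 1 and 7.74 in replicate 2, and Rps25 had 19.2 and 9.46 in the same order. Rpl9 (10.7 and 12.8, optimal signal 24.9) and Rps3 (20.2 and 22.6, optimal signal 42.5), both with a called motif, followed. Rpsa, Rps15a and Rps25 were the bound members without any summit within 10 kb in the conservative IDR list, and for all 3 the strongest optimal peak had no overlap there.

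Rps6, the small subunit protein phosphorylated by S6 kinases, was the only member outside the paralogues without an optimal summit within 10 kb. Its nearest lay 16.98 kb away with a signal of 125. The conservative list did hold 1 summit within 10 kb of Rps6, with a signal of 17.3. In the unfiltered lists there were 6 summits in replicate 1 with a highest signal of 17.7 and 5 in replicate 2 with a highest of 9.06. The pooled list held 7, up to 25.7. The other unbound members were Rpl10l and Rpl39l, paralogues of the X-linked Rpl10 and Rpl39 that are known from the testis. Their nearest optimal summits were 24.442 and 38.774 kb away, and each replicate list held 1 weak summit within 10 kb of each gene, with signals of 2.78 to 2.99, and the pooled list held none. How well reads map to such near-copies was not tested.

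The 6 bound paralogues had only 1 summit within 1 kb of a TSS among them, at Rpl7l1 (signal 271, 0.523 kb upstream). Rps27l, a paralogue of Rps27 induced by p53, had 389.95 at 7.029 kb upstream, Rpl22l1 had 262 at 8.065 kb downstream, Rps27rt, a retrogene, 157 at 3.71 kb downstream and Rpl36al 78.4 at 6.633 kb upstream. Rps19bp1 had 459 at 3.371 kb downstream, and a weak summit of 33.1 lay 1 base from one of its TSSs.

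Rpl18, of the large subunit, had the most summits of all members, 8 within 10 kb, the strongest at 75.9 and so below the median of the optimal list (76.0). Rpl3, Rplp2, Rps10 and Rps15 had 7 each, with strongest signals of 387, 405, 348 and 375. Summits closest to a TSS were at Rpl3 and Rps19bp1, 1 base away, then at Rpl10a, Rpl18 and Rps24, 3 bases away. At Rpl3 that summit had a signal of 104 and at Rpl18 of 48.8, neither with a motif. None of the 79 strongest summits lay in a coding exon of the member, 8 lay in noncoding parts of its exons, 5 in introns, 38 upstream and 28 downstream of the gene. Shares of these places over all bound protein-coding genes are not given.

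For 25 of the 79 members the protein-coding TSS nearest to the strongest summit belonged to another gene. No such share over all bound protein-coding genes is given, so whether this count is particular to the members cannot be told. At Rpl23a it was that of Tlcd1, 152 bases away, at Rpl13a that of Flt3l, 61 bases away, and at Rpl7 that of Rdh10, 17 bases away. Which gene such a peak acts on, if any, cannot be read from these lists.

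Some of the summits around the members shared a sequence. Over all 238 distinct summits within 10 kb of members, 154 (64.7%) had a called motif, against 71.6% of all autosomal optimal peaks. The most frequent reading of the 13 central motif bases was CCAGAAGAGGGCA, searched on both strands, which was also the most frequent over all autosomal optimal peaks. The word was chosen from these sites, so its count is a description. It was found within 100 bases of 35 of the 238 summits (14.7%, interval 10.5 to 19.9), against 7.87% of the 35543 summits within 10 kb of any protein-coding TSS. These 35 summits belonged to 29 members. The next sites are those at Rpl8 and Rpl28, on different chromosomes but identical over all 29 bases shown, followed by sites at Rps2, Rpl23 and Rps16. Capitals again mark the scored motif, on mm10.
Rpl8 (chr15:76908291-76908309, minus strand): cctgtGTGCCAGAAGAGGGCATCAgatcc
Rpl28 (chr7:4796179-4796197, minus strand): cctgtGTGCCAGAAGAGGGCATCAgatcc
Rps2 (chr17:24719180-24719198, minus strand): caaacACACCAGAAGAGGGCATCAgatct
Rpl23 (chr11:97777214-97777232, plus strand): actacAGGCCAGAAGAGGGCAGCAgatcc
Rps16 (chr7:28344863-28344881, minus strand): ggcagTGGCCAGAAGAGGGCACCAtattc

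Of the 35 summits with this word, 32 lay in sequence that the assembly marks as repeat, against 57 of all 238 member summits (23.9%) and 20.7% of the summits near any protein-coding TSS. Repeat sequence came with the word near other genes too: 2595 of the 2796 summits with it near any protein-coding TSS were so marked. As background, short repeats of the mouse B2 family are known to carry CTCF motifs; which repeat these sites belong to was not annotated here. Their median signal was 76.3 and that of the other member summits 105. At Rps16 (389), Rpl28 (312) and Rpl8 (294) such a site was the strongest of the gene, as it was at Rpl38 (409.7), Rpl23 (147), Rpl21 (127) and Rpl36al (78.4). The summits at Rpl38, Rpl36al and Rpl8 lay outside marked repeats. The Rpl8 site nevertheless has the same 29 bases as the Rpl28 site, whose summit was marked, so the mark does not tell whether a site came from a repeat.

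Members also shared features at the start of the transcript. The messenger RNAs of ribosomal proteins are known for a 5' terminal tract of pyrimidines that begins with C. Read strictly at annotated starts, a C followed by 4 bases that are each C or T stood at a start of a coding transcript in 21 of 82 members (25.6%), against 4.29% of 20720 protein-coding genes with such an annotation and 5 of 78 mitochondrial ribosomal protein genes. All 21 were bound, against 78.4% of the 888 protein-coding genes with such a start, and 14 had a summit within 1 kb (66.7% against 52.3%). snoRNA genes lay inside 28 of 82 members (34.1%), against 1.17% of all protein-coding genes. All 28 of these were bound, among them Rpl4 with 5 snoRNAs and Rpl13a with 4, but so were 79 of all 82 members. No bound share is given for all protein-coding genes that hold snoRNA genes.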

How the data were processed

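CTCF ChIP-seq peak lists on mm10 were used for 2 replicates, for their pooled reads and for 2 IDR-filtered lists. Per the deposited file descriptions, both IDR lists were made from the pooled list together with those of the replicates. The sources used here do not give the aligner, the caller, their versions or the IDR threshold, so read depth is unknown. The deposited signal of each peak is the authors' enrichment value, with its normalization not stated, and the summit comes from the offset the authors deposited. Signal was compared within a list only, and between replicates by ratio and rank.

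The members and comparison lists (Mrpl and Mrps, Eif and Eef, Psma to Psmg, 44 ribosome assembly and RNA polymerase I genes) were chosen with earlier results of these data known. Genes were named as unbound, the 10 strongest, the 5 weakest, the 5 nearest to a TSS, those with most summits, sharing a peak, lacking a motif or conservative overlap, stalk genes, paralogues, Rpsa and Rps19bp1; others were chosen after their values were seen. Some genes that this rule names are not reported here by name; they stay in all counts and medians. A 19-base CTCF matrix was trained in 6 rounds (pseudocount 1) on the 5000 strongest peaks of even autosomes and scored on odd ones, and the other way round, within 100 bases of summits. Its threshold was the score reached by 5% of training windows 1 kb away. Sequence came from the RefSeq copy of GRCm38, and no optimal peak ran past a chromosome's end. Alternatives were the list, each replicate alone (its 73465 strongest peaks, as many as the optimal list holds), the window, 1 TSS per gene, the overlap rule, stronger peaks and the motif settings. Intervals are exact Clopper-Pearson ones and, for medians, order-statistic ones, both at 95%. No test was run, because there was 1 group; shares are set beside those of all protein-coding genes. Scripts were tested on simulated data. Python 3.11.15, numpy 2.4.6, scipy 1.17.1, pysam 0.24.0, matplotlib 3.10.9 and samtools 1.23.1 were used.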

Additional observations from a re-analysis of the deposited data

How the results depend on the processing

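No paired analysis was possible because there was 1 group. Of the 82 members, 77 were bound in the conservative list, against 73.4% of all protein-coding genes, and 67 with peaks above the median signal alone, against 57.5%. The 73465 strongest peaks of each replicate alone gave 77 to 79 bound members (all genes 74.4 to 74.5%) and 49 with a promoter summit (all genes 47.4%). The median nearest distance was then 0.242 to 0.325 kb (all bound genes 0.369 to 0.382 kb). The motif share was 73.4 to 76.6% (all bound genes 76.3 to 76.9%). Promoter summits fell to 32 members with peaks above the median signal alone (all genes 25.5%), and to 32 with a 200-base window (all genes 28.9%), because each setting admits fewer summits. The median strongest signal was 152.8 within 2 kb, where fewer summits are in reach, and 179.9 to 189.9 in single replicates, whose lists have their own signal scale. With peaks above the median signal alone the median nearest distance was 1.27 kb, against 1.41 kb for all bound protein-coding genes. In the main setting it was 0.309 kb, against 0.406 kb. The motif share was 87.3% when any summit within 10 kb counted and 59.5% at the threshold reached by 2% of flanking windows. Counting each strongest peak once, an alternative chosen after seeing the data, gave a median of 357.8 and a motif share of 73.1%. Without read counts, summits that the lists do not hold cannot be told from weak ones.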

Other observations

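The 4 ribosomal protein genes on the X chromosome, which the member rule left out, all had an optimal CTCF summit within 10 kb, against 401 of 948 X-linked protein-coding genes (42.3%). Rps4x, of the small subunit, had a strongest signal of 301 and its nearest summit was 0.019 kb from a TSS. Rpl36a had 275 (0.063 kb), Rpl10 had 143 (0.004 kb) and Rpl39 had 40.01 (0.161 kb). Rpl10 and Rpl39 are the X-linked genes whose autosomal paralogues Rpl10l and Rpl39l had no optimal summit within 10 kb. Genes taken as translation factors by symbol alone (Eif or Eef and a digit) were bound in 58 of 65 cases (89.2%), with a median strongest signal of 245.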
